A study of Homo sapiens with 40 samples.

Results

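The comparison asked how the RNA of 786-0 cells labelled decitabine, day 16 differed from that of the same line labelled decitabine, day 5. Its members were the 2 libraries labelled SETD2 WT, 100 nM DAC, day 16 and the 2 labelled SETD2 WT, 100 nM DAC, day 5, chosen by their labels from 40 libraries. 786-0 is an established line of clear cell renal cell carcinoma, and DAC is decitabine. The series sampled a line with SETD2 intact (WT) and a line labelled as a SETD2 knockout (KO). Libraries are labelled untreated control at day 0, or with a drug at day 5, 16 or 26. The drug is 100 nM DAC, 10 nM of the PARP inhibitor BMN673 (talazoparib, here BMN), or the 2 together. Below, cells on a drug are cells so labelled, and how long the drug was present is not given. Total RNA was sequenced in 2 libraries for each of the 20 groups.

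Other libraries serve as context: KO cells on 100 nM DAC, WT cells on 10 nM BMN alone, WT cells on both drugs (the combination), each at day 5 and day 16, and WT cells untreated at day 0 or on DAC at day 26. Untreated cells were taken at day 0 alone, so change under the drug and change with time in culture cannot be told apart in the main comparison. The BMN libraries are the only ones without DAC from the same days. The labels do not say whether the 2 libraries of a group came from separate cultures, nor whether drug was renewed after day 5, so p-values measure only the spread between these libraries, which may be technical.

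Decitabine is a cytidine analogue that is incorporated into DNA during replication, traps the DNA methyltransferases there and so lowers DNA methylation as cells divide. Genes whose promoters are held silent by methylation, among them germline genes of the cancer-testis class, can then be transcribed. Transcription of repeats can also give double-stranded RNA, which the sensors RIG-I and MDA5 (genes RIGI and IFIH1) bind, and signalling through interferon and the transcription factors it activates then turns on interferon-stimulated genes.

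The 4 libraries held 18791925 to 21246457 counts each, against 17833960 to 22631101 over all 40. Per library, levels are given as CPM (the count of a gene relative to the library total after TMM scaling), and passing means an adjusted p under 0.05 in edgeR's quasi-likelihood test. SETD2, the methyltransferase that trimethylates lysine 36 of histone H3, stood at 128 and 135 CPM on day 5 and 144 and 136 CPM on day 16 (log2 0.09 ± 0.07 SE, adjusted p = 0.50). Its RNA did not separate the lines (114 to 180 CPM over 20 WT libraries and 108 to 160 CPM over 20 KO libraries), so gene counts check the KO label neither way. Renal carcinoma markers were present, with PAX8 at 210 to 290 CPM and the vimentin gene VIM at 3810 to 4630 CPM in the 4 libraries. Of 18 leukocyte and endothelial markers 8 had enough counts to test and their summed level was 8.12 and 6.55 CPM on day 5 and 9.76 and 8.82 CPM on day 16. Of those tested CD68 alone passed, higher on day 16 (log2 1.37, adjusted p = 0.019). CD68 was 12.5% of those tested, near the shares of all genes tested that were higher (7.93%) or passed (15.2%). The CD68 call was lost without day 16 replicate 2 and without either day 5 library. The median log2 change of those tested was 1.02, at low levels. The B-cell gene MS4A1 and the globin genes HBB and HBA1 were at 0. In bulk RNA, fewer cells of a type and less RNA per cell cannot be told apart.

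Between day 5 and day 16, 3426 of 22527 genes tested passed (15.2% of genes tested), 1786 higher on day 16 (7.93% of genes tested) and 1640 lower (7.28%). A change of at least 2-fold was seen in 548 of the higher genes (2.43% of genes tested) and 309 of the lower (1.37%). For 12722 genes (56.5%), with or without a call, the libraries of the 2 days did not overlap. The median log2 change over all genes was 0.01. With day 16 replicate 1 left out the counts were 1070 higher and 1074 lower, with day 16 replicate 2 left out 1205 and 931, with day 5 replicate 1 left out 1183 and 925, and with day 5 replicate 2 left out 1101 and 1228. Each of these fits had 1 library in an arm, whose spread was taken to be that of the other groups.

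Of the 12 largest rises 7 belonged to genes that interferon induces. OAS2, an enzyme that makes the 2'-5' oligoadenylates that activate RNase L (ENSG00000111335, GRCh38 chromosome 12, 112978395 to 113011723, plus strand), went from 11.6 and 10.8 CPM on day 5 to 284 and 269 CPM on day 16, a 24.7-fold rise (log2 4.63 ± 0.10 SE, adjusted p = 2.5e-27). The other leading interferon genes were IFITM1, IFI44L, RSAD2, MX1, IFI6 and MX2, with rises of log2 3.82 to 4.47. The remaining genes among the 12 largest rises were LINC01667, the polymeric immunoglobulin receptor PIGR, the apolipoprotein APOA4, the collagen COL3A1 and the acute-phase gene SAA2. Among the 12 largest falls were 4 genes with roles or main expression in germ cells or the placenta, GCNA, TEX13C, TKTL1 and PSG9, beside the endothelin EDN2, the ligand WNT2B, the smooth muscle calponin CNN1 and GFRA1, the co-receptor for GDNF. For all 24 genes the 2 libraries of a day lay on 1 side of both libraries of the other day, which the naming rule required.

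**Figure D1:**
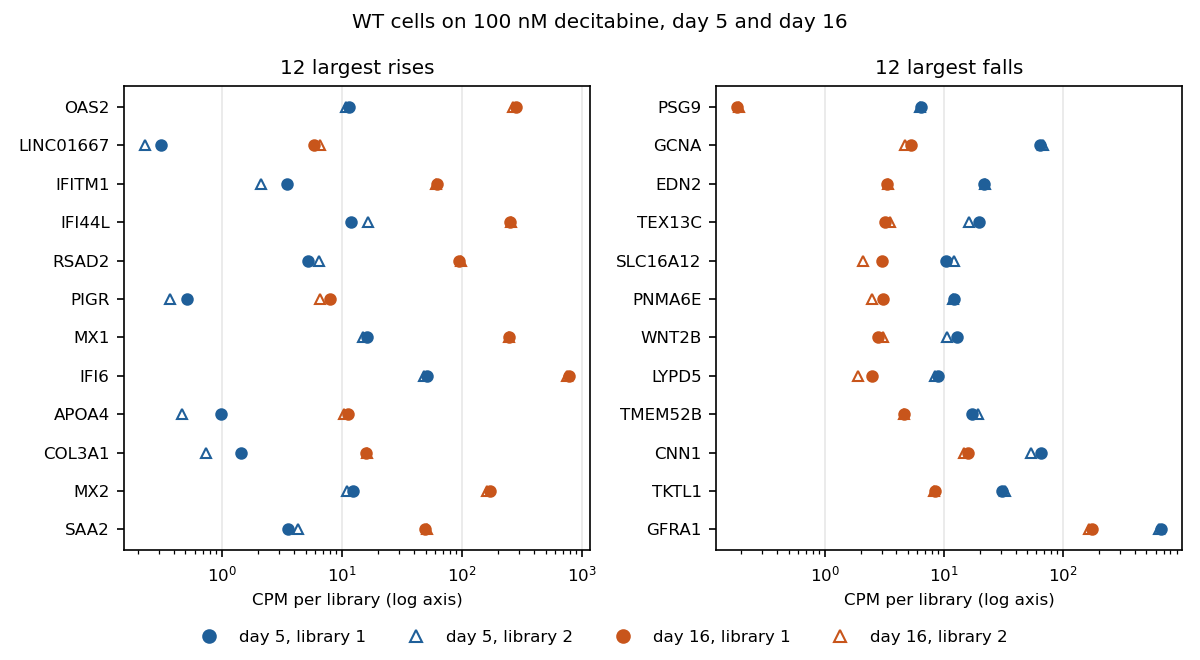
Levels in CPM (log axis) of the 12 genes with the largest rises (left) and the 12 with the largest falls (right) in each WT library on 100 nM decitabine, day 5 in blue and day 16 in orange, with a filled circle and an open triangle for the 2 libraries. OAS2 moved from 11.6 and 10.8 to 284 and 269 CPM and GCNA from 64.7 and 67.8 to 5.27 and 4.74 CPM.

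**Figure D2:**
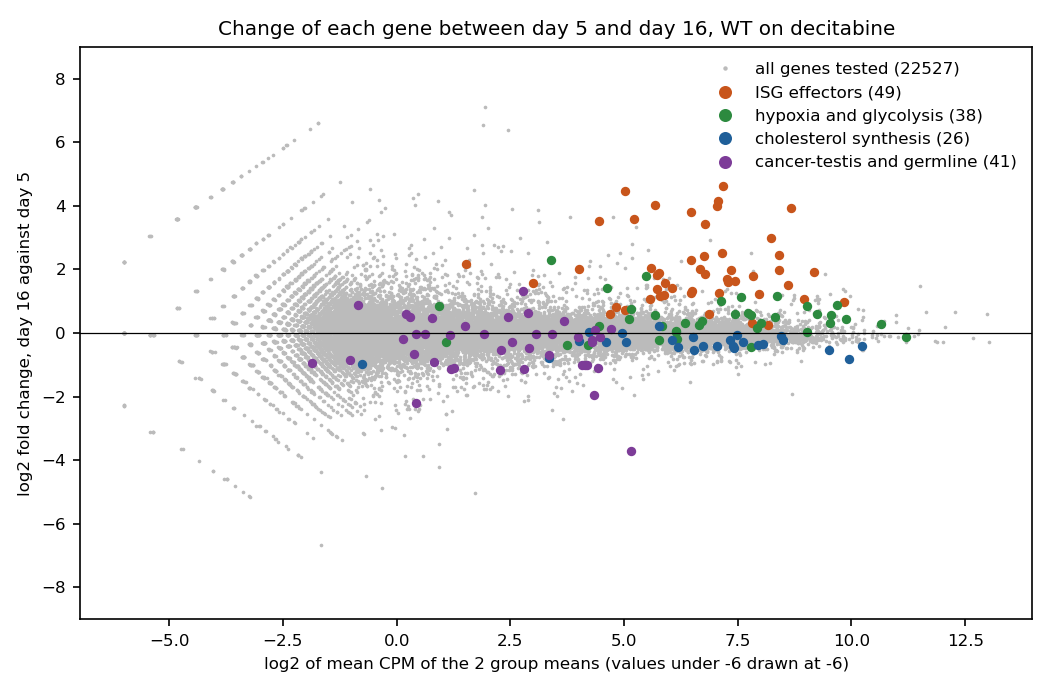
Log2 fold change from day 5 to day 16 against the log2 of the mean CPM of both groups for 22527 genes (grey), with the members of 4 lists in colour. The 49 interferon effector genes all lie above 0 (0.26 to 4.63), while the 26 cholesterol synthesis genes have a median of -0.32.

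All 49 genes of the interferon effector list rose, and 42 of them at least 2-fold (7.93% of all genes tested rose). Like the other lists, it was chosen with earlier results of these data known, so its share is a description and not an independent test. The median log2 change of the list was 1.82, and its summed level went from 3698 and 3612 CPM on day 5 to 11990 and 11710 CPM on day 16. IFI6, an inhibitor of cell death that interferon induces (ENSG00000126709, chromosome 1, 27666064 to 27672212, minus strand), was at 51.8 and 48.6 CPM on day 5 and 779 and 753 CPM on day 16 (log2 3.93 ± 0.11 SE, adjusted p = 1.7e-24). IFI44L was at 11.9 and 16.6 CPM and then at 251 and 257 CPM. MX1, a GTPase that blocks RNA viruses, was at 16.2 and 15.1 CPM and then at 249 and 247 CPM. In each of these genes both day 16 libraries stood more than an order of magnitude above both day 5 libraries. ISG15, a ubiquitin-like modifier, rose from 66.2 and 65.9 to 267 and 252 CPM. The rise was small for CNP, with 208 and 193 CPM on day 5 and 256 and 246 CPM on day 16 (log2 0.33 ± 0.08 SE, adjusted p = 0.0048). IFITM1 has near-identical copies, so its count is uncertain. With any 1 of the 4 libraries left out, 48 or 49 members rose.

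The promoters of these genes are shown because many hold the core of the interferon-stimulated response element, the sequence that IRF factors and complexes that hold them bind. The core was searched on both strands as GAAA, 2 bases of any kind and GAAA (TTTC, 2 bases and TTTC on the other strand) in the 300 bases from 250 before to 50 after each gene's start in RefSeq (GRCh38.p14). Of 27305 promoters 3.65% held it, and of the 12769 promoters of genes tested 2.98%. It was found in 28 of 41 interferon effector promoters (68.3%), 9 of 17 of MHC class I presentation (52.9%), 4 of 12 of nucleic acid sensing (33.3%), 3 of 3 of the guanylate-binding and APOBEC3 list, and 0 of 32 of the hypoxia list. Interferon effector genes with the core had a median log2 change of 1.82 (28 genes, 0.61 to 4.47) and those without it 1.69 (13 genes, 0.26 to 4.04). Each stretch ends at the base before the start, and capitals mark the core on either strand.
IFI6, chr1:27672193-27672352, minus strand: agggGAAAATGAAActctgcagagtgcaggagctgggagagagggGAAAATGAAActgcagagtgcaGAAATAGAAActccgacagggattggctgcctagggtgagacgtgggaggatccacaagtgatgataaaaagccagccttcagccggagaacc
IFI44L, chr1:78620278-78620447, plus strand: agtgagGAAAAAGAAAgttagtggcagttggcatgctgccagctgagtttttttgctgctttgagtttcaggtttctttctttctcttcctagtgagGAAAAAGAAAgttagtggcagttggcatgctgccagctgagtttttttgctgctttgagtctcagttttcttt
IFITM1, chr11:313940-314039, plus strand: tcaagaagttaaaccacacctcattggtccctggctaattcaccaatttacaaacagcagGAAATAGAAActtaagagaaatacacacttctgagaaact
IFIH1, chr2:162318685-162318844, minus strand: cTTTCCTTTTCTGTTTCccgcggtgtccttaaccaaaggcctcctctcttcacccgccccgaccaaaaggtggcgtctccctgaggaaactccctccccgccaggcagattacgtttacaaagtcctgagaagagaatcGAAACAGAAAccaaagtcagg
GBP1, chr1:89065209-89065348, minus strand: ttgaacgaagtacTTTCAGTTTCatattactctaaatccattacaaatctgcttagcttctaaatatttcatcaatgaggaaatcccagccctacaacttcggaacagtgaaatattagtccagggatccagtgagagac
IFI6 and IFIH1 held 3 matches each, IFI44L 2, and IFITM1 and GBP1 a single match each in the stretch shown. OAS2 has no entry in the table used.

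Of 17 sensing genes tested 10 passed, all higher on day 16 (58.8%, against 7.93% of all genes tested). The median log2 change of the list was 0.71. IFIH1, the gene of the long double-stranded RNA sensor MDA5, was at 30.2 and 27.8 CPM on day 5 and 95.9 and 98.3 CPM on day 16 (log2 1.74 ± 0.11 SE, adjusted p = 3.5e-14). RIGI, the sensor of RNA ends, was at 4.76 and 3.57 CPM and then at 15.2 and 14.1 CPM. The DNA sensor IFI16 went from 69.4 and 69.7 to 258 and 265 CPM, and AIM2, which assembles an inflammasome on DNA, from 0.879 and 0.975 to 6.66 and 6.16 CPM. The other members that rose were ADAR, DHX58, EIF2AK2, SAMHD1, TRIM25 and ZBP1, the last on few counts and lost without day 5 replicate 2 (adjusted p = 0.066).

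Interferon ligands themselves were almost not detected. Of 10 ligand genes 7 had 0 counts in the 4 libraries. IFNB1 and IFNL1 had at most 3 and 6 counts in a library, too few to test. IFNE alone had enough counts to test. It was at 0.362 and 0.418 CPM on day 5 and 0.555 and 0.332 CPM on day 16, with overlapping groups. Among 22 genes of interferon signalling (median log2 0.20) 10 rose (45.5%) and 3 fell (13.6%), against 7.93% and 7.28% of all genes tested. Among its transcription factors STAT2 rose from 89.3 and 81.9 to 220 and 209 CPM (log2 1.33 ± 0.07 SE, adjusted p = 3.1e-17) and IRF7 from 13.2 and 10.2 to 32.7 and 28.6 CPM. The receptor chains IFNAR2 and IFNGR2 fell (log2 -0.40 and -0.39), as did IRF5 (log2 -0.56), while the chain IFNGR1 rose from 20.7 and 25 to 28.5 and 30.7 CPM (log2 0.37 ± 0.11 SE, adjusted p = 0.024). The kinase JAK1 was at 415 and 425 CPM and then at 432 and 431 CPM (log2 0.04 ± 0.05 SE, adjusted p = 0.69). The count of members that rose was 6 without day 16 replicate 1, without day 5 replicate 1 or without day 5 replicate 2.

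Antigen presentation by MHC class I loads peptides made by the proteasome onto HLA molecules. Its genes passed in 14 of 21 cases, all higher on day 16 (66.7%, against 7.93% of all genes tested). The median log2 change of the list was 0.42, with 0.37 to 1.71 among those that rose. B2M, the invariant light chain, was at 609 and 616 CPM on day 5 and 1390 and 1380 CPM on day 16 (log2 1.18 ± 0.06 SE, adjusted p = 2e-17). HLA-B went from 546 and 508 to 1360 and 1300 CPM, HLA-F from 29.0 and 25.4 to 90.4 and 86.9 CPM, and NLRC5, the transactivator of the class I genes, from 42.1 and 37.0 to 78.3 and 77.3 CPM. HLA genes share sequence, so the split of counts between them is uncertain. Chaperones of the same path without an adjusted p under the threshold were CANX (1170 and 1250, then 1260 and 1290 CPM, adjusted p = 0.42) and TAPBP (650 and 621, then 692 and 678 CPM, adjusted p = 0.33). Of 9 class II genes tested 2 rose (22.2%) and 1 fell (11.1%), against 7.93% and 7.28% of all genes tested. HLA-DPA1 went from 0.259 and 0.232 to 0.972 and 0.853 CPM (adjusted p = 0.03), a call lost with any 1 of the 4 libraries left out. HLA-DRB1, at 0 and 0.0464 and then 0.601 and 0.284 CPM (adjusted p = 0.029), kept its call only without day 16 replicate 2, and both rest on few counts. The class II invariant chain CD74 fell, from a mean of 98.3 CPM (SD 7.9, n = 2) to 58.1 CPM (SD 1.8, n = 2) (log2 -0.76 ± 0.12 SE, adjusted p = 1.4e-05). Of 11 guanylate-binding and APOBEC3 genes 7 passed, all higher (63.6%, against 7.93% of all genes tested). The GTPase GBP5 went from 6.62 and 6.41 to 32.2 and 31.0 CPM and GBP1 from 31.0 and 32.1 to 76.2 and 75.5 CPM.

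**Figure D3:**
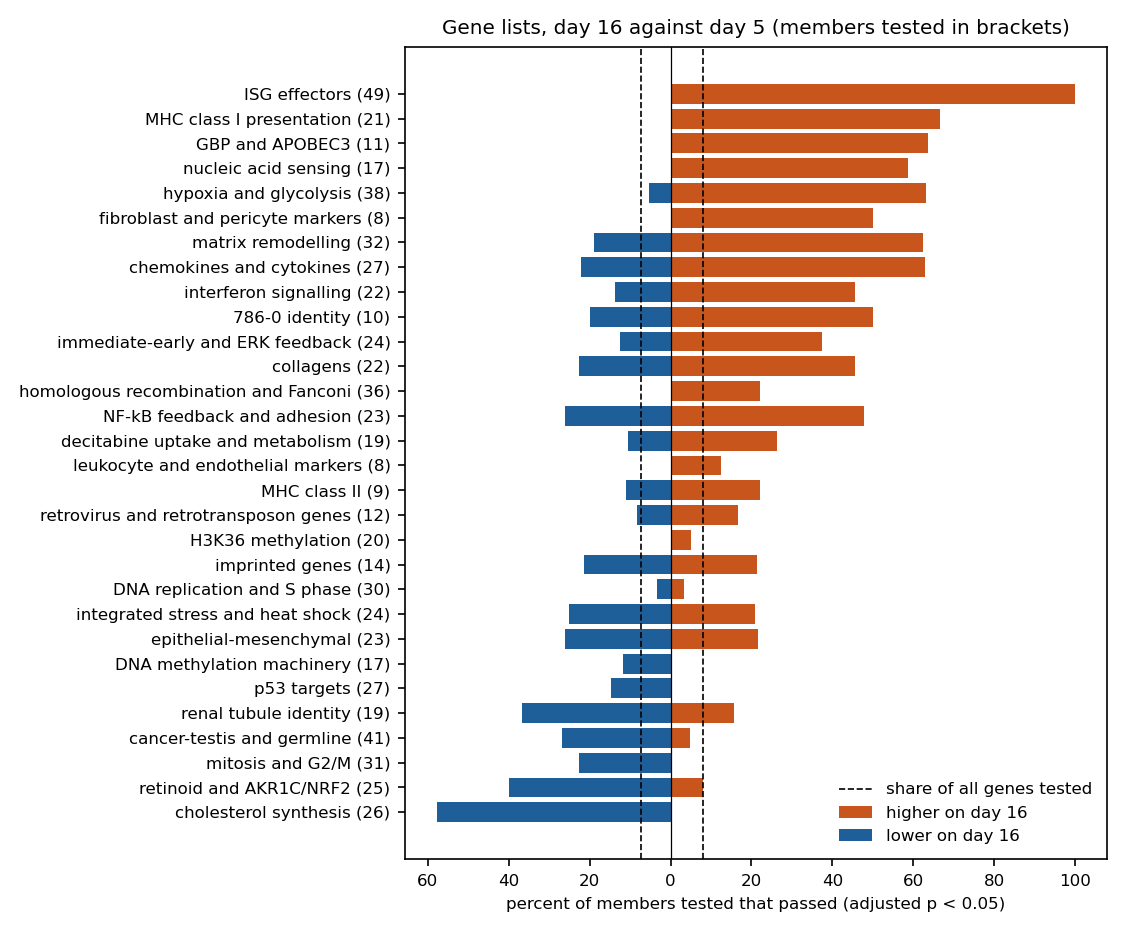
Percent of the tested members of each gene list that passed higher (orange, to the right) or lower (blue, to the left) on day 16, with the number tested in brackets and dashed lines at the shares of all genes tested (7.93% higher and 7.28% lower). The interferon effector list stands at 49 of 49 higher, and the cholesterol synthesis list at 15 of 26 lower. The lists were chosen with earlier results of these data known.

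Inflammatory genes also differed between the days. Of 27 chemokine and cytokine genes 17 rose (63%) and 6 fell (22.2%), against 7.93% and 7.28% of all genes tested. Their median log2 change was 1.16, and their summed level went from 1169 and 1153 CPM to 1839 and 1857 CPM. CXCL1, a neutrophil attractant (ENSG00000163739, chromosome 4, 73869393 to 73871308, plus strand), was at 8.53 and 7.15 CPM on day 5 and 42.3 and 42.8 CPM on day 16 (log2 2.44 ± 0.12 SE, adjusted p = 2.9e-17). The chemokine CXCL12 went from 3.41 and 3.06 to 12.8 and 12.8 CPM, CXCL8 from 23.7 and 23.3 to 66.0 and 68.5 CPM, and IL6 from 18.4 and 17.2 to 43.7 and 41.1 CPM. In these 4 genes both day 16 libraries were above both day 5 libraries, beside 56.5% of all genes tested whose groups did not overlap. IL32 fell from 218 and 202 to 113 and 112 CPM. TNF was at 4.4 and 4.74 CPM and then at 3.15 and 3.79 CPM (log2 -0.40 ± 0.20 SE, adjusted p = 0.22). Without day 5 replicate 1 the count of members that fell was 3.

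Among 23 genes of NF-kB feedback, adhesion and the acute phase (median log2 0.25), 11 rose (47.8%) and 6 fell (26.1%). The shares of all genes tested were 7.93% and 7.28%. Members of the list that rose most were acute-phase and complement genes. SAA1, serum amyloid A, was at 29.8 and 25.2 CPM and then at 212 and 204 CPM (log2 2.92 ± 0.11 SE, adjusted p = 2.8e-20), its near-identical copy SAA2 at 3.57 and 4.36 CPM and then at 49.8 and 51.1 CPM, and reads of this pair may be shared. The complement protease gene C1R went from 2.22 and 2.55 to 17.0 and 17.7 CPM and the central component C3 from 514 and 472 to 1310 and 1280 CPM. The NF-kB subunit genes NFKB1, NFKB2 and RELB fell, with NFKB2 at 168 and 153 CPM and then at 107 and 109 CPM (log2 -0.57 ± 0.08 SE, adjusted p = 1.6e-06). A kB site, searched on both strands as GGGA, any base and TTTCC, was in 0.579% of all promoters. It was in 6 of 19 chemokine and cytokine promoters (31.6%) and in 5 of 17 of the NF-kB list (29.4%). Holders that rose were CXCL1, CXCL2, CXCL3, CXCL5, IL6, NFKBIA and TNFAIP3. The holders IL32 and NFKB1 fell, and NFKBIZ and REL did not pass. Whether the site goes with the direction of change was not tested. The CXCL1 promoter is shown as an example, with the kB site in capitals and the stretch ending at the base before the start.
CXCL1, chr4:73869293-73869392, plus strand: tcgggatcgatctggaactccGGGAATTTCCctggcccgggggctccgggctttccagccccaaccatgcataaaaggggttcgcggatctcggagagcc

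Germline genes, whose promoters are among the best known targets of DNA methylation, mostly did not differ, and those that did were mostly lower on day 16. Of 41 cancer-testis and germline genes tested 2 rose (4.88%) and 11 fell (26.8%), against 7.93% and 7.28% of all genes tested. The median log2 change of the list was -0.21, and its summed level went from 442 and 456.4 CPM to 298.2 and 295 CPM. GCNA, a germ cell protease-like protein that guards against DNA-protein crosslinks (ENSG00000147174, chromosome X, 71578437 to 71613583, plus strand), went from 64.7 and 67.8 CPM on day 5 to 5.27 and 4.74 CPM on day 16, a 13.2-fold fall (log2 -3.72 ± 0.13 SE, adjusted p = 5.2e-21), against 0.871 CPM in untreated cells. The transketolase-like gene TKTL1 went from 30.9 and 32.9 to 8.42 and 8.20 CPM. DAZL, an RNA-binding protein of germ cells, went from 5.84 and 7.52 to 2.36 and 3.65 CPM, and the piRNA pathway gene TDRD12 from 10.2 and 9.01 to 5.04 and 3.65 CPM. In these genes both day 16 libraries lay below both day 5 libraries and above the mean of untreated cells. The groups of 56.5% of all genes tested did not overlap. In the opposite direction GAGE2A, which has near-identical copies, rose from 3.93 and 3.85 to 10.1 and 9.57 CPM and PAGE1 from 5.74 and 5.94 to 9.11 and 8.96 CPM. With any 1 of the 4 libraries left out a single member rose, GAGE2A. MAGEA3 was at 24.0 and 22.2 CPM and then at 21.0 and 21.2 CPM (adjusted p = 0.66), against 3.41 CPM in untreated cells, and also has near-identical copies.

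Of genes outside this list, TEX13C, a testis-expressed gene, fell from 19.7 and 16.4 to 3.19 and 3.56 CPM, and had 0 counts in both untreated WT libraries. PSG9, a placental glycoprotein of a family of near-identical copies, went from 6.41 and 6.36 to 0.185 and 0.190 CPM, a level of few counts (log2 -5.04 ± 0.48 SE, adjusted p = 5.2e-10). The promoters of 3 genes that fell are shown for their CpG dinucleotides, the sites that DNA methyltransferases act on, which are in capitals. Each stretch is the 200 bases before the RefSeq start and holds 15, 10 and 27 CpG in the order printed. Over the 300 bases searched these promoters held 21, 18 and 33 CpG. In that window the median promoter held 14 CpG, that of genes tested 25, that of interferon effector genes 9 and that of the germline list 18. Other germline genes that fell ranged from 1 CpG (MAGEB1) to 60 (MAEL). DNA methylation itself was not measured.
GCNA, chrX:71578237-71578436, plus strand: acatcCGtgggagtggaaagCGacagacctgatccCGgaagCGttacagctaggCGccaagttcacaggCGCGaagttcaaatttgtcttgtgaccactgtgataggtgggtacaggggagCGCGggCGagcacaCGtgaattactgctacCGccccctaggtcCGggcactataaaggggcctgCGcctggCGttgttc
TKTL1, chrX:154295595-154295794, plus strand: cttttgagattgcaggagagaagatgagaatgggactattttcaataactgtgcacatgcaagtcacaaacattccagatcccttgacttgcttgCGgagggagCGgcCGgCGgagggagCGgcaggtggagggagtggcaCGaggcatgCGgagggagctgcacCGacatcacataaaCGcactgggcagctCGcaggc
DAZL, chr3:16605424-16605623, minus strand: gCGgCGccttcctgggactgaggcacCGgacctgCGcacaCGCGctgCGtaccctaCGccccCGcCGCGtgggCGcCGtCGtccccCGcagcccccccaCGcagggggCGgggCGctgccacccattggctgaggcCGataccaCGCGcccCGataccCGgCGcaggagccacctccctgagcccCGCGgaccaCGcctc

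Of 17 genes of DNA methylation tested, 2 passed, both lower on day 16 (11.8%, against 7.28% of all genes tested that were lower and 15.2% that passed). DNMT1, the maintenance methyltransferase, was at 331 and 316 CPM on day 5 and 325 and 325 CPM on day 16 (log2 0.01 ± 0.07 SE, adjusted p = 0.97). DNMT3A, a de novo methyltransferase, fell from 17.7 and 18 to 12.3 and 11.9 CPM (log2 -0.57 ± 0.13 SE, adjusted p = 0.002), and the demethylase TET3 from 61.3 and 59.0 to 48.6 and 47.3 CPM. DNMT3B was at 65.7 and 68.4 CPM and then at 57.3 and 57.8 CPM (adjusted p = 0.12), and UHRF1, which recruits DNMT1 to newly made DNA, at 180 and 170 CPM and then at 167 and 157 CPM (adjusted p = 0.40).

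Genes that handle decitabine and other nucleosides changed in 7 of 19 cases, with 5 higher (26.3%) and 2 lower (10.5%). Among all genes tested 7.93% were higher and 7.28% lower, so the count of falls was near that share. Without day 16 replicate 2 or without day 5 replicate 2 a single member was lower. NT5E, the surface 5'-nucleotidase CD73 (ENSG00000135318, chromosome 6, 85449584 to 85495791, plus strand), was at 25.6 and 27.0 CPM on day 5 and 125 and 126 CPM on day 16 (log2 2.25 ± 0.08 SE, adjusted p = 1.8e-21). SAMHD1, a dNTP triphosphohydrolase that is also an interferon-induced gene, went from 90.8 and 94.7 to 362 and 360 CPM. RRM2, the small subunit of ribonucleotide reductase, went from 281 and 292 to 355 and 356 CPM. The drug efflux pump ABCB1 fell from 31.8 and 31.3 to 16.3 and 16.4 CPM (log2 -0.95 ± 0.09 SE, adjusted p = 1.2e-09). CDA, the deaminase that inactivates decitabine, was at 23.9 and 19.9 CPM and then at 32.0 and 28.2 CPM (adjusted p = 0.0051), a call lost without day 16 replicate 1 (adjusted p = 0.15) or day 5 replicate 2 (adjusted p = 0.19).

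Of 38 hypoxia and glycolysis genes, a list that also holds the hypoxia-inducible factor genes EPAS1 and HIF1A, 24 rose (63.2%) and 2 fell (5.26%). Among all genes tested 7.93% rose and 7.28% fell. The median log2 change of the list was 0.41, and fewer members fell with any 1 of the 4 libraries left out. 786-0 is known to lack a working VHL protein and so to carry active HIF2, the product of EPAS1. VEGFA, the angiogenic growth factor, was at 380 and 365 CPM on day 5 and 683 and 651 CPM on day 16 (log2 0.84 ± 0.07 SE, adjusted p = 4.8e-11). The glucose transporter SLC2A3 went from 19.9 and 20.2 to 66.9 and 71.9 CPM, the carbonic anhydrase CA12 from 209 and 199 to 462 and 445 CPM, the prolyl hydroxylase EGLN3 from 118 and 118 to 264 and 256 CPM, and the lipase inhibitor ANGPTL4 from 3.78 and 3.39 to 20.3 and 14.8 CPM. Both day 16 libraries were above both day 5 libraries in these 5 genes, and the groups of 56.5% of all genes tested did not overlap. Glycolysis was not uniform: ENO1 was at 2550 and 2330 CPM and then at 2290 and 2230 CPM (adjusted p = 0.25), and PFKFB3, which drives glycolytic flux, fell from 263 and 246 to 192 and 188 CPM. The core ACGTG of the hypoxia response element, searched on both strands, was in 14 of 32 promoters of the list (43.8%), against 25.9% of the genes tested and 36.4% of the germline list.

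Extracellular matrix genes changed in both directions. Of 32 matrix remodelling genes (median log2 0.49) 20 rose (62.5%) and 6 fell (18.8%). Of 22 collagens (median log2 0.29) 10 rose (45.5%) and 5 fell (22.7%). Among all genes tested 7.93% rose and 7.28% fell. Fibronectin, FN1, was at 1610 and 1480 CPM on day 5 and 4360 and 4210 CPM on day 16 (log2 1.47 ± 0.06 SE, adjusted p = 2.5e-20). COL3A1, the chain of type III collagen, went from 1.45 and 0.743 to 15.9 and 16.2 CPM (log2 3.88 ± 0.22 SE, adjusted p = 5.5e-15), and the type VI chain COL6A3 from 264 and 252 to 607 and 589 CPM. COL1A1, which stood at 14.0 CPM in untreated cells, was at 2010 and 1770 CPM and then at 1820 and 1750 CPM (log2 -0.08 ± 0.09 SE, adjusted p = 0.64). The collagens COL11A1 and COL8A2 and the lysyl oxidase LOXL4 fell, the last from 21.8 and 24.7 to 8 and 7.68 CPM. TGFBI, a secreted matrix protein that TGF-beta induces, rose from 3970 and 3640 to 6200 and 5940 CPM, and THBS1, thrombospondin, fell from 1280 and 1220 to 734 and 696 CPM. Of the fibroblast and pericyte markers with enough counts, 4 of 8 rose (DCN and FAP on few counts), the summed level of the list was 156.1 and 144.8 CPM and then 163.7 and 163.7 CPM, and DPT had 0 counts. The part of other cells in these changes was not tested.

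Several epithelial and renal genes fell, and others rose or did not pass. The cadherin CDH1 fell from 17.6 and 17.1 to 5.51 and 5.26 CPM (log2 -1.69 ± 0.18 SE, adjusted p = 2.6e-08) and the keratin KRT7 from 5.74 and 5.99 to 1.06 and 2.42 CPM. Of 23 epithelial-mesenchymal genes 5 rose and 6 fell, but the count of rises was 1 without day 16 replicate 1, without day 16 replicate 2 or without day 5 replicate 1 and 2 without day 5 replicate 2, and that of falls was 3 without day 16 replicate 2. The main counts of rises and falls in that list were 21.7% and 26.1% of its members. Those that rose were CDH11, CLDN1, VIM, ZEB1 and ZEB2, and the keratin KRT8 did not pass (log2 -0.16, adjusted p = 0.38). Of 19 renal tubule genes (median log2 -0.37) 3 rose (15.8%) and 7 fell (36.8%). The renal genes that rose were VCAM1 (log2 1.41, adjusted p = 2.2e-16), ANPEP and PAX8. Among all genes tested 7.93% rose and 7.28% fell. CDH6, the cadherin of the proximal tubule and of renal carcinoma, was at 233 and 242 CPM on day 5 and 113 and 113 CPM on day 16, against 567 CPM in untreated cells (log2 -1.07 ± 0.07 SE, adjusted p = 2.3e-13). The renal developmental factor PAX2 fell from 37 and 38 to 24.8 and 26.2 CPM. PAX8 was at 233 and 210 CPM and then at 290 and 276 CPM (adjusted p = 0.001), a call lost without day 16 replicate 1 (adjusted p = 0.054) or day 5 replicate 2 (adjusted p = 0.092), with either of which 1 renal gene rose. CNN1 fell from 64.9 and 54.2 to 15.9 and 14.8 CPM.

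GFRA1 fell by more than 2-fold (ENSG00000151892, chromosome 10, 116056925 to 116276803, minus strand). It stood at 664 and 638 CPM on day 5 and 176 and 166 CPM on day 16 (log2 -1.93 ± 0.05 SE, adjusted p = 1.4e-24), against 614 CPM in untreated cells. ALDH1A1, which makes retinoic acid from retinal (ENSG00000165092, chromosome 9, 72900671 to 73080442, minus strand), was at 255 and 262 CPM and then at 107 and 107 CPM (log2 -1.27 ± 0.06 SE, adjusted p = 2.1e-18), against 810 CPM in untreated cells. Of 25 genes of retinoid metabolism and the NRF2 programme (median log2 -0.28) 2 rose (8%) and 10 fell (40%). Among all genes tested 7.93% rose and 7.28% fell. Fewer members fell with any 1 of the 4 libraries left out, fewest without day 16 replicate 2. A single member rose without day 16 replicate 1 or without day 5 replicate 2. EDN2 went from 21.9 and 22.1 to 3.33 and 3.41 CPM and WNT2B from 12.8 and 10.7 to 2.82 and 3.08 CPM.

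Cholesterol and fatty acid synthesis genes, a list of SREBP factor genes and their targets, passed in 15 of 26 cases, all lower on day 16. That was 57.7%, against 7.28% of all genes tested. The median log2 change of the list was -0.32, with -0.23 to -0.81 among those that fell. FASN, fatty acid synthase, was at 1330 and 1170 CPM on day 5 and 742 and 688 CPM on day 16 (log2 -0.81 ± 0.12 SE, adjusted p = 8.1e-06). The squalene epoxidase gene SQLE went from 195 and 200 to 140 and 143 CPM. SREBF2, which encodes an SREBP factor, was among the members that fell. SREBF1, which encodes another, was at 198 and 171 CPM and then at 183 and 168 CPM (adjusted p = 0.78).

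Of 24 immediate-early genes, EGF receptor ligands and feedback genes of the ERK kinase path, 9 rose (37.5%) and 3 fell (12.5%). Among all genes tested 7.93% rose and 7.28% fell. The median log2 change of the list was 0.33. The ETS factor ETV4 went from 1.45 and 1.62 to 4.81 and 5.69 CPM, ETV5 from 20.3 and 17.5 to 37.2 and 38.6 CPM, and PHLDA1 from 37.5 and 37.4 to 81.9 and 83.9 CPM. The EGF receptor ligand HBEGF fell from 24.2 and 21.4 to 11.5 and 11.4 CPM. Without day 16 replicate 2 or day 5 replicate 1 a single member fell.

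Growth and damage lists passed at shares below, near or above that of all genes tested (15.2%). Of 30 DNA replication genes RRM2 rose and CDC6 fell, the latter from 117 and 120 to 97.4 and 91.5 CPM. MKI67, the proliferation antigen and a member of the mitotic list, was at 1070 and 1050 CPM and then at 1020 and 999 CPM (adjusted p = 0.73). Of 31 mitotic genes 7 fell (22.6%) by log2 -0.18 to -0.36, a count that was 4 without day 16 replicate 1, 2 without day 16 replicate 2 and 0 without day 5 replicate 1. Of 27 p53 targets 4 passed (14.8%), all lower, and a single member fell with any 1 library left out. ZMAT3, an RNA-binding p53 target, was at 29.1 and 38.2 CPM and then at 20.2 and 21.4 CPM (log2 -0.70 ± 0.13 SE, adjusted p = 0.00017). Of 36 homologous recombination and Fanconi genes 8 rose (22.2%) by log2 0.26 to 0.47, and 3 to 5 with 1 library left out. Of 20 genes of H3K36 methylation the demethylase KDM4C alone passed, from 17.3 and 18.7 to 27.1 and 25.9 CPM.

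H19, an imprinted noncoding RNA (ENSG00000130600, chromosome 11, 1995176 to 2001470, minus strand), was at 7.78 CPM in untreated cells, 300 and 290 CPM on day 5 and 1050 and 1100 CPM on day 16 (log2 1.87 ± 0.09 SE, adjusted p = 2e-17). Of 14 imprinted genes tested 3 rose (21.4%) and 3 fell (21.4%), against 7.93% and 7.28% of all genes tested. PEG10, an imprinted gene derived from a retrotransposon, fell from 388 and 388 to 208 and 200 CPM, against 914 CPM in untreated cells (log2 -0.93 ± 0.05 SE, adjusted p = 2.3e-16).

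Whether the change over the same days was the same under other conditions was tested as a difference of changes in the same fit. For WT against KO cells, both on DAC, 656 genes differed (2.91%), 405 with a more positive change in WT (1.80%) and 251 with a more negative one (1.11%). In KO cells 4022 genes passed between the days (17.9%), 1868 higher (8.29%) and 2154 lower (9.56%). All 49 interferon effector genes rose in KO cells too, with a median log2 change of 2.06, and in the test of the difference 2 had a more positive and 18 a more negative change in WT. OAS2 went from 7.52 to 319 CPM (means) in KO cells, a larger rise than in WT (difference of log2 changes, WT minus KO, -0.78, adjusted p = 0.00048). GCNA went from 64.3 to 11.6 CPM in KO cells, a smaller fall than in WT (difference -1.25, adjusted p = 2e-05). ETV4 (3.76 to 3.78 CPM in KO cells, difference 1.76, adjusted p = 0.00021) and ETV5 (36 to 26.9 CPM, difference 1.42, adjusted p = 4.4e-08) changed more positively in WT. They were among 11 of 24 members of the immediate-early and ERK feedback list that did. NT5E rose from 154 to 247 CPM in KO cells (difference 1.57, adjusted p = 2.6e-12). The number of genes with a more positive change was 217 without WT day 16 replicate 1, 238 without WT day 5 replicate 2, 247 without KO day 16 replicate 2 and 245 without KO day 5 replicate 1. The number with a more negative change was 141 to 153 without WT day 16 replicate 1 or 2, WT day 5 replicate 1, KO day 16 replicate 1 or 2 or KO day 5 replicate 2.

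On BMN alone 145 genes passed between the days (0.644%), 36 higher (0.160%) and 109 lower (0.484%), and 3855 had an unadjusted p below 0.05. The change under DAC differed from that under BMN for 1710 genes (7.59%), 1014 more positive (4.50%) and 696 more negative (3.09%) under DAC. Of the interferon effector list 3 passed on BMN, all lower, and 48 of 49 changed more positively under DAC. IFI6 was at 11.0 and then 8.56 CPM on BMN (difference 4.30, adjusted p = 7.3e-19). VEGFA was at 207 and then 198 CPM on BMN (difference 0.90, adjusted p = 6.1e-08), and 23 of 38 hypoxia genes changed more positively under DAC. GFRA1 was at 596 and then 657 CPM on BMN (difference -2.07, adjusted p = 8.5e-21). MALAT1, an abundant nuclear RNA, rose under DAC from 5970 and 6870 to 9510 and 10000 CPM and was at 7340 and then 10400 CPM on BMN (difference 0.10, adjusted p = 0.84). The number of genes with a more negative change under DAC was 357 to 426 with any 1 of the 8 libraries left out other than DAC day 5 replicate 1, without which it was 480.

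With both drugs 6328 genes passed between the days (28.1%), 2941 higher (13.1%) and 3387 lower. The change under DAC alone differed from it for 1142 genes (5.07%), 926 more positive (4.11%) and 216 more negative (0.959%). OAS2, IFI6 and MX1 were at 112, 233 and 106 CPM on day 5 of the combination and at 363, 834 and 310 CPM on day 16. Their day 5 levels on both drugs lay above the day 5 levels on DAC alone given above, a difference that was not tested. For 45 of 49 interferon effector genes the change was smaller than under DAC alone. Hypoxia genes differed the other way for 11 of 38 members, with CA12 going from 202 to 775 CPM on both drugs (difference -0.78, adjusted p = 4.9e-09). The falls of 3 genes were larger on both drugs, GFRA1 from 412 to 22.7 CPM (difference 2.25, adjusted p = 4.4e-21), ALDH1A1 from 97.8 to 3.60 CPM (difference 3.48, adjusted p = 1.6e-22) and CDH6 from 167 to 32.6 CPM (difference 1.29, adjusted p = 1.2e-10). COL3A1 was at 0.998 and then 1.97 CPM on both drugs (difference 2.91, adjusted p = 8.1e-06). The number more positive under DAC alone was 584 without DAC day 16 replicate 1, 579 without DAC day 5 replicate 2 and 603 without combination day 16 replicate 2, and the number more negative was 101 to 131 with any 1 of the 8 libraries left out other than combination day 5 replicate 1, without which it was 145.

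**Figure D4:**
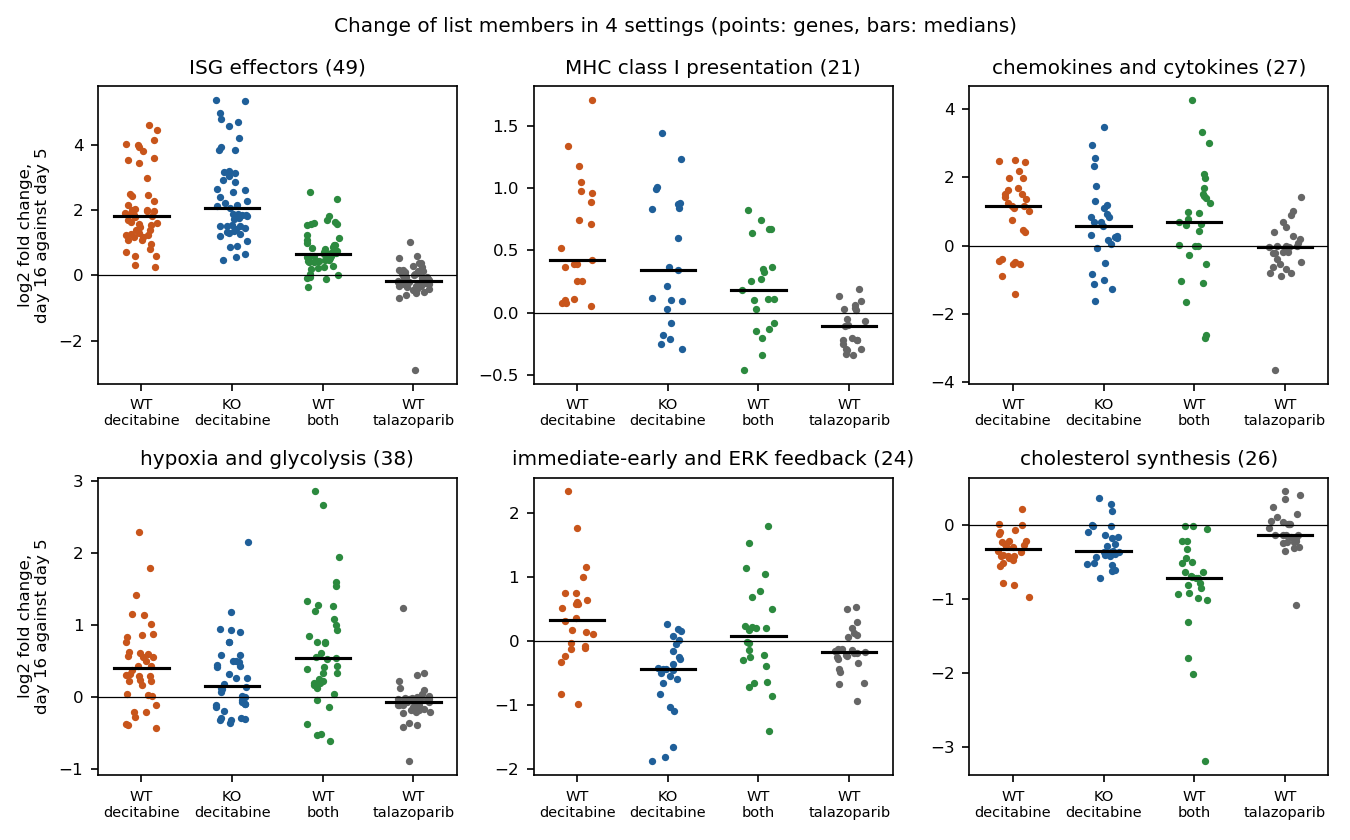
Log2 fold change from day 5 to day 16 of each tested member of 6 gene lists (points, bars at medians) in WT cells on decitabine, KO cells on decitabine, WT cells on both drugs and WT cells on talazoparib (BMN). Interferon effector medians are 1.82, 2.06, 0.65 and -0.18 in that order. Those of immediate-early and ERK feedback genes are above 0 in WT and below 0 in KO cells on decitabine.

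The untreated and day 26 libraries place these changes in time. Both comparisons share libraries with the main one (day 5 with untreated, day 16 with day 26), so values are only set side by side. Replicates of untreated WT cells and of WT cells on DAC at day 26 differed most among the 20 groups. Their chi-square per degree of freedom was 19.6 and 17.1, against 2.49 on day 16. The test took its spread from all 20 groups. From untreated to day 5, 6272 genes passed (27.8%), 3518 higher (15.6%) and 2754 lower (12.2%), and from day 16 to day 26, 4427 (19.7%), 2501 higher (11.1%) and 1926 lower (8.55%). OAS2 was at 0.103 CPM in untreated cells and 258 CPM on day 26, and was not called different from day 16 (log2 -0.10, adjusted p = 0.41). IFI6 was at 9.60 CPM in untreated cells and 414 CPM on day 26, a fall from day 16 (log2 -0.89, adjusted p = 7.2e-09). Of the interferon effector list 18 passed from day 16 to day 26, all lower. SAA1 was at 32.8 CPM on day 26 (log2 -2.67, adjusted p = 6.3e-19), CXCL1 at 12 CPM (log2 -1.83, adjusted p = 2.4e-14) and VEGFA at 209 CPM (log2 -1.68, adjusted p = 3.2e-18). Of 27 chemokine and cytokine genes 16 fell from day 16 to day 26, and of 38 hypoxia genes 21 fell. ALDH1A1 was at 652 CPM on day 26 (log2 2.61, adjusted p = 3.3e-26), CDH6 at 367 CPM (log2 1.70, adjusted p = 3.2e-18) and GFRA1 at 364 CPM (log2 1.09, adjusted p = 1.4e-17). GCNA fell further, to 2.43 CPM (log2 -1.05, adjusted p = 4.1e-05).

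**Figure D5:**
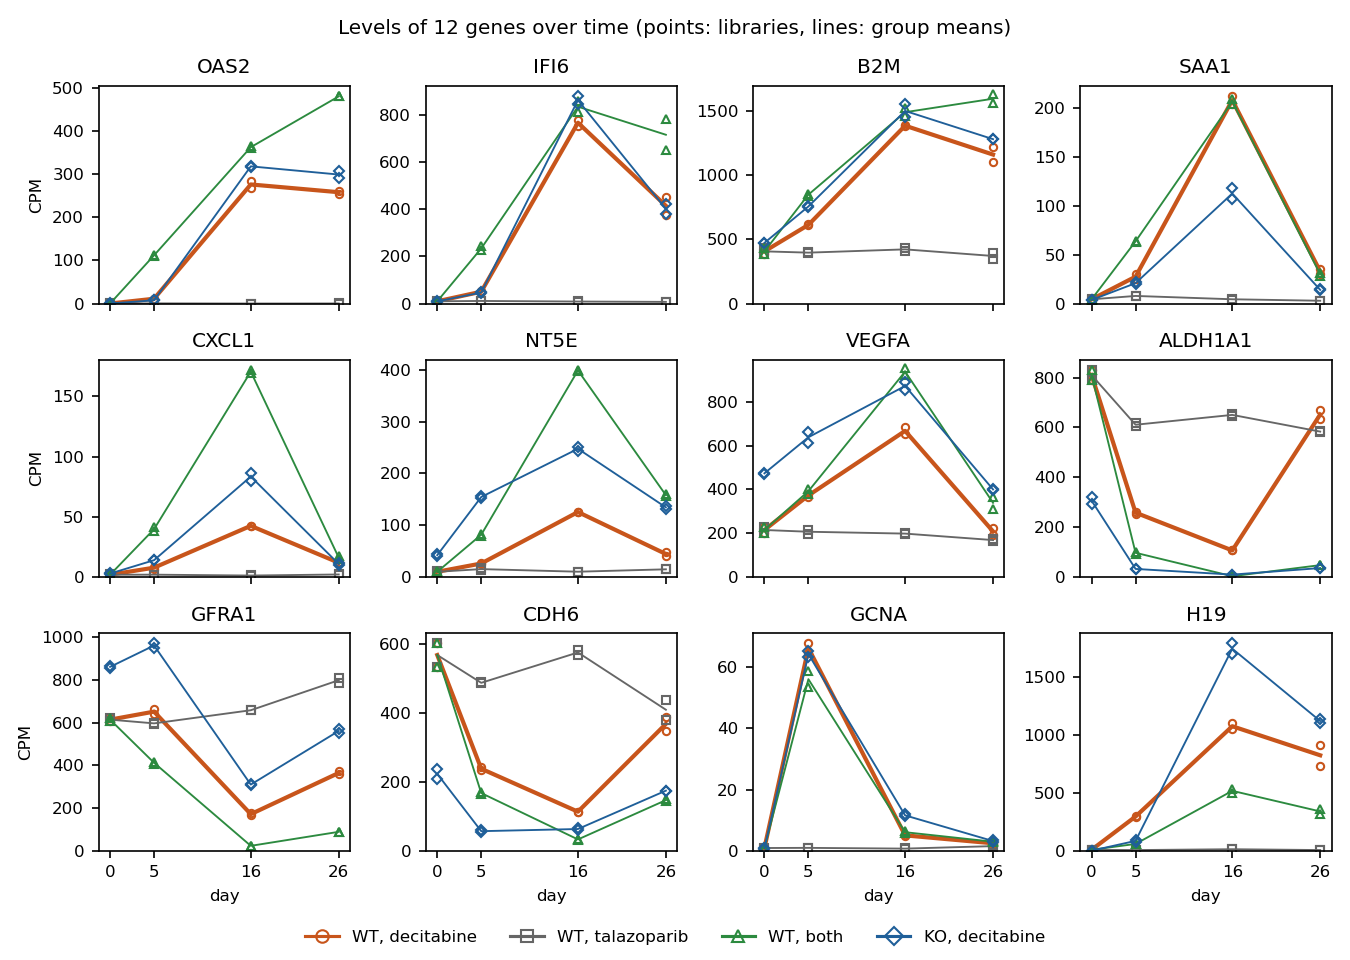
CPM of 12 genes by day in WT cells on decitabine (orange), talazoparib (grey) and both (green) and in KO cells on decitabine (blue), with a point for each library and lines through group means, and untreated cells at day 0. In WT cells on decitabine OAS2 and B2M stood at 258 and 1160 CPM on day 26, above their day 5 levels, and SAA1 and VEGFA at 32.8 and 209 CPM, below their day 16 levels.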

How the data were processed

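The 40 libraries of 786-0 total RNA, made with KAPA RNA HyperPrep per the labels' protocols, form 20 groups of 2. The authors deposited raw, unnormalized counts. Per the file headers, featureCounts 1.5.0-p1 made them from primary alignments with mapping quality 20 or more, skipping duplicates, on strand setting 1 and against GRCh38 genes of Ensembl 104. The submitters' processing notes also name FastQC, Trimmomatic and Partek. All 37 mitochondrial genes are at 0.

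The filterByExpr filter of edgeR (count of 10, total of 15, by group) left 22527 of 60664 genes. A single quasi-likelihood fit, scaled by TMM, held all 40 libraries and a coefficient for each group (edgeR 4.0.16, R 4.3.3, 20 residual degrees of freedom, biological coefficient of variation 0.0718). Benjamini-Hochberg adjustment ran over all genes of a contrast. A standard error is the absolute log2 change divided by the square root of F. On simulated data for the main comparison (22527 genes) 61.2% of true 1.5-fold changes (41 of 67) were called. So were 85.1% of 2-fold ones (57 of 67) and 98.5% of 4-fold ones (65 of 66), with 10 unchanged genes (5.78% of calls). No gene at low counts was changed there, and far fewer genes changed than passed in the data, so these shares need not hold for the data. No sample was dropped, and replicates of a group differed by more than counting noise in every group (chi-square per degree of freedom 1.66 to 19.6).

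The comparison and the 31 gene lists (755 distinct genes, 667 tested) were chosen with earlier results of these data known. Lists are described by counts and medians with no set test. Genes were named by a rule: SETD2, DNMT1, DNMT3A, DNMT3B and UHRF1, the 12 largest rises and falls by log2 change (only named genes with 3 or more counts in each library, 5 or more CPM on the higher day and groups that do not overlap), the 5 largest by CPM each way, up to 6 members per list that passed and 2 that did not, and the 5 largest differences of change each way. The genes printed are a choice among these, and a few results are not reported here. ISG15, CNP, IRF5, IFNAR2, IFNGR1, IFNGR2, CXCL8, IL6, IL32, NFKB2, PAGE1 and PFKFB3 were chosen after their values were seen. VIM was also printed outside the rule. Other names without values are members of a list. The median density of reads on 475 antisense genes was 0.0135 of that of their partners. Alternatives were RLE scaling, other filters, DESeq2 1.42.0, limma-voom 3.58.1, a test against a 1.5-fold change, fits on fewer libraries, a replicate block, the ending of the alignment names as a term, and leaving out each library.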

Additional observations from a re-analysis of the deposited data

Results flagged for a closer look

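The change from day 5 to day 16 on decitabine was tested for a difference between WT and KO cells, and the genes below were picked out because that difference passed in edgeR's quasi-likelihood test. Of all genes tested 405 changed more positively and 251 more negatively in WT. Of 249 genes named by the rule 62 were among them, 37 more positive and 25 more negative, and in 2 of these, LIPG and ETV5, the changes passed in opposite directions. LIPG, endothelial lipase, was at 13.3 and 14.8 CPM on day 5 and 37.7 and 38.5 CPM on day 16 in WT and at 60.1 and then 22.1 CPM (means) in KO cells. Values given for most of them below are differences of log2 changes, WT minus KO.

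Those more positive in WT by more than 2 on the log2 scale were LIPG 2.88, the host transcript MIR3142HG 2.73, the dynein DNAH17 2.38, the prolactin receptor PRLR 2.26 and MLPH 2.24. Retinoid genes among them were CYP26B1 1.87, DHRS3 1.53 and ALDH1A1 0.43. ERK feedback and growth factor genes were ETV4 1.76, ETV5 1.42, PHLDA1 1.19, HBEGF 0.83, IER3 0.66 and GRB10 0.44. Hypoxia genes were ANGPTL4 1.86, SLC2A3 1.02, ADM 0.44, CA12 0.40 and VEGFA 0.39. Immune genes were CSF2 1.34, IL1A 1.14, CTSS 1.07, TNF 0.88, GBP5 0.75, VCAM1 0.74, CD74 0.71, EPSTI1 0.55, GBP1 0.52, HLA-B 0.46, TNFRSF10B 0.46, TAPBP 0.40 and GBP3 0.36. The others were NT5E 1.57, MMP1 1.40, CNN1 1.38, THBS1 0.36 and CDH2 0.32.

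Among those more negative in WT by more than 2 were PRIMA1 -4.36, the insulin-like growth factor binding protein IGFBP5 -3.16, the troponin TNNT3 -3.15, STON2 -2.55, LSP1 -2.52 and H19 -2.50. PRIMA1 was at 2.64 and 2.41 CPM and then at 5.83 and 4.88 CPM in WT and at 0.325 and then 14.4 CPM in KO cells, and IGFBP5 went from 1.93 to 39.1 CPM in KO cells. H19 went from 84.7 to 1740 CPM in KO cells. Matrix genes were COL3A1 -1.62, LOX -0.73, COL6A1 -0.69, COL1A1 -0.62 and SPARC -0.48. Interferon, complement and sensing genes were IFITM1 -0.90, OAS2 -0.78, C3 -0.77 and SAMHD1 -0.43. The others were SYT7 -1.81, TKTL1 -1.40, EDN2 -1.29, GCNA -1.25, WNT2B -1.25, CDH6 -1.22, PEG10 -0.84 and GFRA1 -0.29. COL3A1 and IFITM1 lost the call without WT day 16 replicate 1 (adjusted p = 0.089 and 0.073), as did DNAH17 (0.10), MLPH (0.062) and WNT2B (0.10), and GFRA1 lost it without WT day 16 replicate 2 (0.13).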

How the results depend on the processing

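Of 134 recomputed counts of the 4 comparisons 87 were within 1.5 times the main value and 47 were not, and no named gene reversed in any of the settings run. Against a 1.5-fold change the main comparison kept 362 genes higher and 187 lower, the difference from KO 56 and 28, from BMN 251 and 78 and from the combination 190 and 14. With only the libraries compared the difference from BMN held 1730 and 1539 genes and that from the combination 460 lower, with only the 20 WT libraries 422 lower against BMN and 76 lower against the combination, and with a minimum count of 50 the last was 332. The difference from KO could not be run with WT libraries only. With 1 library left out the main counts ran from 1070 to 1205 higher and from 925 to 1228 lower, those against KO from 217 to 370 and 141 to 180, against BMN from 737 to 1060 and 357 to 480, and against the combination from 579 to 776 and 101 to 145. The cause of these shifts was not tested. More genes fell than rose without day 16 replicate 1 (1070 and 1074), without day 5 replicate 2 (1101 and 1228) and in DESeq2 (1611 and 1655). Of 168 named genes that passed, 162 of the 165 that DESeq2 gave an adjusted p passed there too, 168 passed in limma-voom and 136 to 144 with 1 library left out.

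Replicate numbers were not used as pairs in the main fit. Deviations of day 5 and day 16 libraries with the same number correlated at 0.21 over 11792 genes. Over 190 pairs of groups the correlation ran from -0.58 to 0.72, with 44 pairs over 0.1. These values cannot show whether samples were paired, because the replicate numbers may be arbitrary, and a shared technical source was not tested. A replicate block gave 1792 genes higher and 1657 lower in the main comparison, 410 and 252 against KO, 1032 and 701 against BMN and 933 and 225 against the combination.

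Depth limits what is said of genes at few counts, such as PSG9, ZBP1 and the interferon ligands, and 2 libraries a group limit calls of small changes. In the simulation, whose settings differed from the data as given above, 61.2% of 1.5-fold changes were found.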

Other observations

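Stress genes that the report does not describe changed in both directions. Of 24 genes of the integrated stress response and heat shock (median log2 -0.02) 5 rose (20.8%) and 6 fell (25%). Among all genes tested 7.93% rose and 7.28% fell. Fewer members fell with any 1 of the 4 libraries left out. DDIT3, the transcription factor CHOP of prolonged stress, went from 8.28 and 7.38 CPM on day 5 to 12.1 and 12.8 CPM on day 16 (log2 0.67 ± 0.13 SE, adjusted p = 0.00041). VLDLR, a lipoprotein receptor, fell from 113 and 109 to 76.2 and 75.2 CPM (log2 -0.55 ± 0.07 SE, adjusted p = 8.4e-08), against 262 CPM in untreated cells.

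The difference from the combination was led by CLDN2, a claudin of leaky tight junctions, which stood at 2.95 and 3.06 CPM on day 5 and 2.22 and 2.18 CPM on day 16 of decitabine alone (adjusted p = 0.18) and at 6 and then 0.310 CPM on both drugs (difference 3.81, adjusted p = 1.9e-08). SYT7, a synaptotagmin, differed most in the opposite direction, with 2.48 and 1.39 and then 1.16 and 0.995 CPM on decitabine alone and 0.922 and then 5.23 CPM on both drugs (difference -3.33, adjusted p = 1.1e-05).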
